A study of Mus musculus with 2 samples.

Results

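The autophagy genes described here are 37 genes that act in the start, growth, loading and transcriptional control of the autophagosome, out of 22609 gene symbols counted. They were chosen by name, and 35 were found under the listed symbol and 2, Tfeb and Tfe3, under the older symbols Tcfeb and Tcfe3. Liver RNA was sequenced from male C57BL/6 mice in 2 libraries, 1 labelled Lrg1 knockout and 1 labelled wild type, to ask how loss of the secreted glycoprotein LRG1 relates to liver gene expression. The Lrg1 knockout is labelled as a whole-body deletion, and the wild-type animals are given as C57BL/6J in the treatment notes and C57BL/6 in the strain label. Mice of both genotypes ate a diet with 45% of calories from fat for 16 weeks from 8 weeks of age. The labels give neither the number of mice behind a library nor the hour of tissue collection.

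Autophagy delivers cytoplasm, organelles and aggregates to the lysosome. A kinase complex around ULK1 starts the process, a lipid kinase complex marks the membrane, ATG9 vesicles and ATG2 lipid transfer extend it, and a pair of ubiquitin-like conjugation systems attach LC3 and GABARAP proteins to it, which cargo receptors then bind. In liver the pathway supplies nutrients during fasting and turns over lipid droplets and mitochondria, and TFEB and TFE3 are transcription factors that induce many of its genes. Transcript counts do not measure autophagic flux.

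Reads in genes numbered 18738397 in the library labelled Lrg1 knockout, against 23311906 in the one labelled wild type. Levels are given as read counts and as CPM, which are reads scaled to a common library size adjusted by the trimmed mean of M-values (TMM), so that a single read stood for 0.0519 CPM with the Lrg1 knockout label and 0.0441 CPM with the wild-type label. Lrg1 itself had 17572 reads under the Lrg1 knockout label, against 26958 under the wild-type label, so its label could not be checked by loss of the transcript, and every direction below compares libraries by label; they are called the library labelled KO and the WT library from here on. A single library stands for each genotype, so differences have no replicate check and no p-value is given, and all intervals are 95% intervals for counting error only. Hepatocyte markers summed to 86269 CPM in the library labelled KO and 100088 CPM in the WT library over 6 of 6 markers measured. Alb, at 64406 and 79170 CPM in the same order, dominated these sums. It gave 1241979 of 1663578 marker reads in the library labelled KO and 1793429 of 2267286 in the WT library. Of the 6 markers 5 were lower in the library labelled KO. Apoa1 was higher, at 12981 CPM against 10908 CPM in the WT library. In bulk tissue, fewer cells of a type and less RNA per cell cannot be told apart.

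Autophagy genes differed little between the libraries. None of the 37 genes was 2-fold apart, against a background of 4.2% of the 11411 measured genes (50 reads or more in the pair of libraries), 1.71% higher and 2.49% lower. Only Atg13 was at least 1.5-fold apart, being lower in the library labelled KO, which is 1 of 37 genes or 2.70%, while 12.8% of all measured genes were past 1.5-fold in either direction, 5.89% higher and 6.91% lower. All 37 genes passed the read minimum, and the log2 ratio of the library labelled KO to WT ran between -0.63 for Atg13 and 0.29 for Tfeb. Their interquartile range was 0.27 on the log2 scale, against 0.41 over all measured genes. Most autophagy genes are well covered, so the same was done with genes of at least 1000 reads, a limit chosen after the data were seen. There 1 of 29 autophagy genes was past 1.5-fold, against 7.79% of 4981 genes, and the interquartile ranges were 0.19 for the autophagy genes and 0.33 for all.

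**Figure D1:**
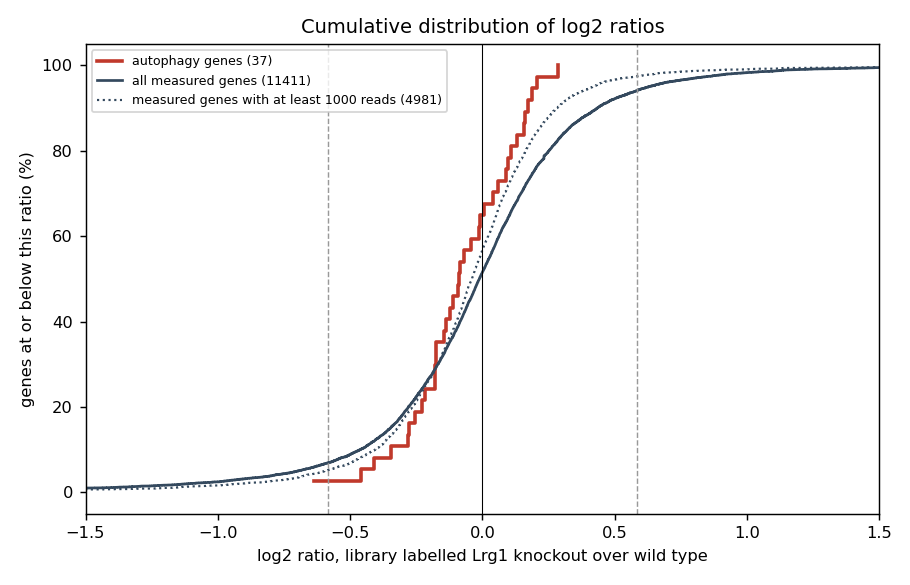
Cumulative share of genes (y axis, percent) at or below each log2 ratio of the library labelled KO to WT (x axis) for the 37 autophagy genes, all 11411 measured genes and the 4981 measured genes with at least 1000 reads; dashed lines mark 1.5-fold. The curve of the autophagy genes is steeper than the others and has 1 gene, Atg13, beyond the lower dashed line.

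The 37 genes leaned to lower values in the library labelled KO, with 24 of 37 below 0 against 51.6% of all measured genes. Their median log2 ratio was -0.09, against -0.01 for all measured genes. Scaling by total count moved every log2 ratio up by 0.083, to a median of -0.0067 for the autophagy genes and 0.071 for all genes, and left the difference between the medians at -0.077. The counting interval lay wholly below no difference for 17 autophagy genes and wholly above it for 4, against 26.6% and 22.0% of all measured genes. Interval width depends on depth, so genes with at least 1000 reads were also compared. There 21 of 29 autophagy genes were below 0, against 2832 of 4981 genes, with medians of -0.11 and -0.04. Intervals lay wholly below for 15 and wholly above for 4 of the 29, against 1920 and 1260 of the 4981. With total-count scaling 20 of 37 genes were below 0, against 4592 of 11411 measured genes, and 8 intervals lay wholly below and 7 wholly above no difference, against 19.4% and 31.6% of all measured genes. By step, each median rests on only 2 to 6 genes. The median log2 ratio was -0.24 for the initiation complex (4 genes, between -0.63 and 0.16) and -0.20 for the lipid kinase complexes (6 genes). It was -0.09 for ATG9, ATG2 and WIPI genes (5), -0.09 for conjugation enzymes (6) and 0.07 for ATG4 proteases (4). LC3 and GABARAP genes (5) were at -0.11, cargo receptors (5) at -0.12 and Tfeb and Tfe3 (2) at 0.19. Atg101, a further part of the initiation complex at 0.38, is not among the 37 genes. Added together, the 37 genes had 3268 CPM in the library labelled KO and 3576 CPM in the WT library.

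**Figure D2:**
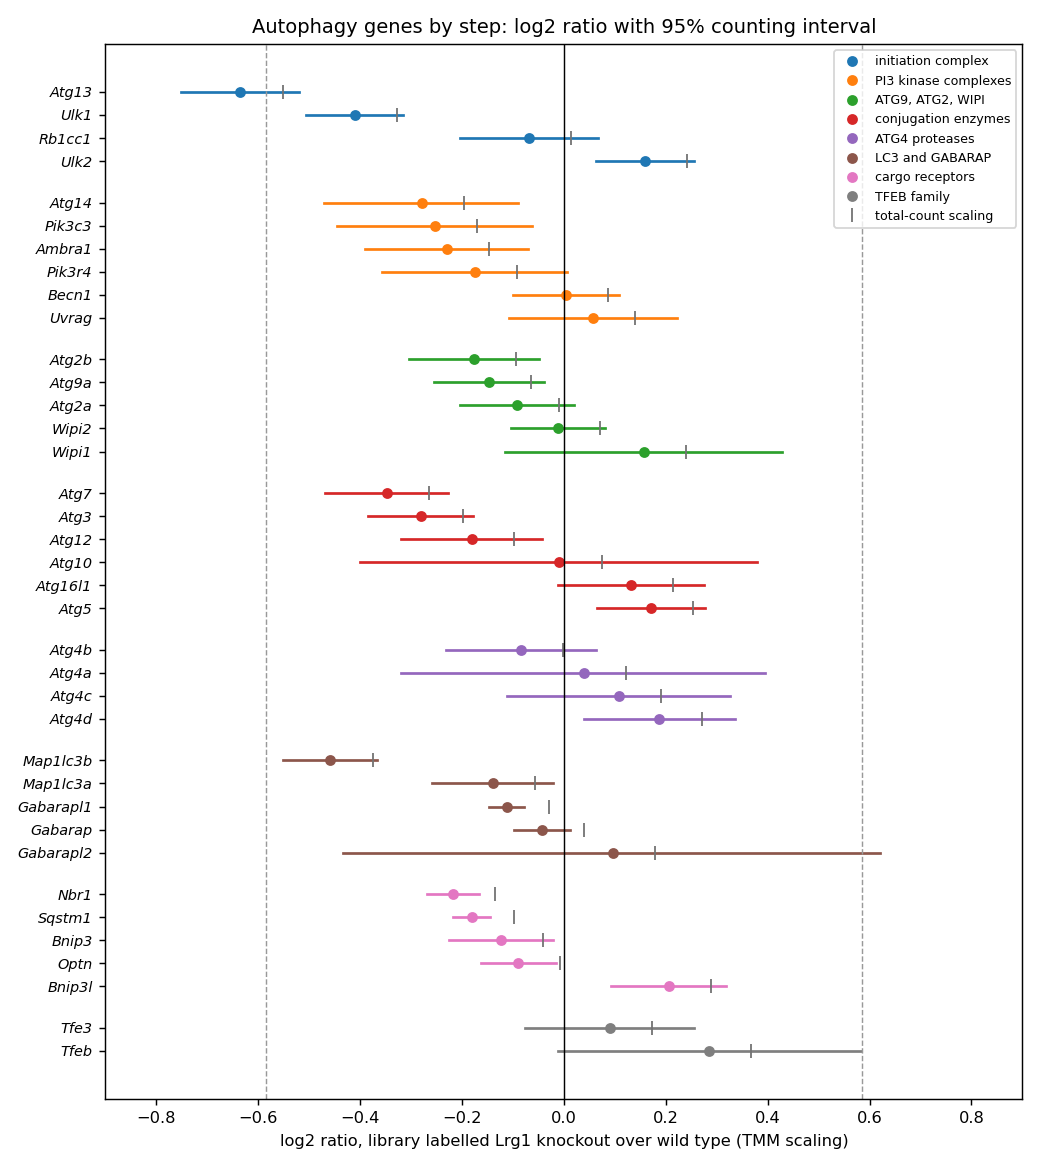
Log2 ratio of the library labelled KO to WT (x axis) for each autophagy gene (rows, grouped and coloured by step), with points for TMM scaling, horizontal lines for 95% counting intervals and grey ticks for total-count scaling; dashed lines mark 1.5-fold. Atg13 (-0.63), Map1lc3b (-0.46) and Ulk1 (-0.41) lie farthest to the left and Tfeb (0.29) farthest to the right.

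The initiation complex held the gene with the lowest ratio and also a gene that went the other way. Atg13, on chromosome 2, encodes the adaptor that ties the ULK kinases to the scaffold FIP200. It had 935 reads, or 48.5 CPM, in the library labelled KO and 1706 reads, or 75.3 CPM, in the WT library. The ratio was 0.644 (0.594 to 0.698), at the 5.97 percentile of all measured genes, or 1.55-fold higher in the WT library. With total-count scaling its log2 ratio was -0.55 in place of -0.63, which no longer passes 1.5-fold.

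Ulk1, on chromosome 5, encodes the kinase that starts autophagy and is inhibited by mTORC1. It had 1458 reads and 75.6 CPM in the library labelled KO, against 2277 reads and 101 CPM in the WT library, a ratio of 0.752 (0.704 to 0.804). Its paralogue Ulk2 had 88.6 CPM in the library labelled KO and 79.3 CPM in the WT library, a ratio of 1.12 (1.04 to 1.19). Ulk1 thus gave fewer reads than Ulk2 in the library labelled KO and more in the WT library. The scaffold gene Rb1cc1, which encodes FIP200, had 42.0 CPM in the library labelled KO and 44.1 CPM in the WT library, with an interval that included no difference. Of its coding 50-base stretches 13.6% recur in the processed pseudogene Gm13961, so part of its reads cannot be placed.

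The share of reads within a pair of genes does not depend on how libraries are scaled, and 10 pairs were compared, chosen after the ratios were seen. Ulk1 took 46.1% (44.3% to 47.8%) of Ulk1 and Ulk2 reads in the library labelled KO and 55.9% (54.4% to 57.4%) in the WT library, with exact Clopper-Pearson intervals and an odds ratio of 0.674 (0.613 to 0.740). Atg13 took 53.6% (51.2% to 55.9%) of Atg13 and Rb1cc1 reads in the library labelled KO, against 63.1% (61.2% to 64.9%) in the WT library. In both pairs the intervals of the libraries were apart. Since these pairs join genes with low ratios to partners near or above 1, the choice of pairs set this separation, and it is given as a description.

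**Figure D3:**
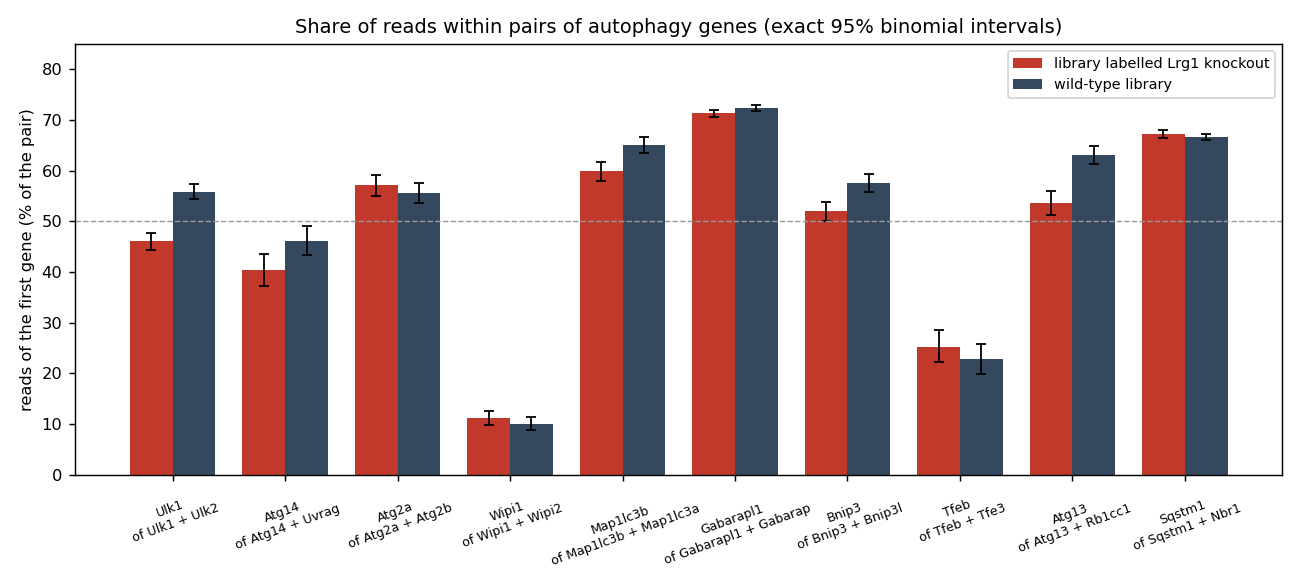
Reads of the first gene as a percentage of the reads of each pair (y axis) in the library labelled KO (red, left bar) and the WT library (dark, right bar), with exact 95% binomial intervals that cover counting error only. The share is 46.1% against 55.9% for Ulk1 and 53.6% against 63.1% for Atg13, and the intervals overlap in 6 of 10 pairs, those led by Atg14, Atg2a, Wipi1, Gabarapl1, Tfeb and Sqstm1.

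The class III phosphatidylinositol 3-kinase complexes, which mark the forming membrane with PI3P, showed small differences. Pik3c3, the catalytic subunit, had 387 reads (20.1 CPM) in the library labelled KO and 542 reads (23.9 CPM) in the WT library, a ratio of 0.839 (0.734 to 0.957). Pik3r4, its regulatory kinase-like subunit, had 22.7 CPM in the library labelled KO and 25.6 CPM in the WT library, and Becn1, the Beclin 1 scaffold, had 71.7 and 71.5 CPM in the same order. The intervals of both included no difference, and that of Pik3r4 ran between 0.780 and 1.004. In the annotation 55.1% of the Becn1 exon bases overlap Cntd1 on the opposite strand, and its value is uncertain because no source used here gives the strand setting of the counting.

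Atg14 directs the lipid kinase to autophagosome formation, whereas Uvrag defines the form that acts on endosomes and later steps. Atg14 had 385 reads (19.97 CPM) in the library labelled KO and 549 reads (24.2 CPM) in the WT library, a ratio of 0.824 (0.721 to 0.940). Uvrag had 29.4 CPM in the library labelled KO and 28.3 CPM in the WT library, a ratio of 1.04 (0.928 to 1.17). Atg14 made up 40.4% (37.3% to 43.6%) of the reads of both in the library labelled KO and 46.2% (43.3% to 49.1%) in the WT library. The intervals of these shares overlapped at their ends, and the odds ratio was 0.792 (0.664 to 0.944). Ambra1, a Beclin 1 partner, was at 28.8 CPM in the library labelled KO and 33.8 CPM in the WT library, a log2 ratio of -0.23.

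Genes for membrane supply and for reading PI3P were near no difference. The intervals of Atg9a (0.838 to 0.973) and Atg2b (0.810 to 0.966) still lay wholly below 1. Those of Atg2a, Wipi1 and Wipi2 included no difference. Atg9a encodes the lipid scramblase of the vesicles that seed the membrane and had 64.1 CPM in the library labelled KO and 71.0 CPM in the WT library, a log2 ratio of -0.15. Of its exon bases 41.8% overlap the same-strand gene Gm29253 in the annotation, so its reads are uncertain. The lipid transfer gene Atg2a had 60.8 CPM in the library labelled KO and 64.8 CPM in the WT library (log2 ratio -0.09), and Atg2b had 45.7 and 51.6 CPM in the same order (-0.18). Their shares of the pair differed by less than the counting error, with Atg2a at 57.1% in the library labelled KO and 55.6% in the WT library. Wipi2, the PI3P reader that recruits ATG16L1, had 91.3 CPM in the library labelled KO and 92.1 CPM in the WT library, a ratio of 0.992 (0.930 to 1.06). Wipi1 was at 11.5 CPM in the library labelled KO and 10.3 CPM in the WT library.

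Among the conjugation enzymes, those that activate and transfer LC3 were lower under the KO label, while parts of the complex that places it were not. Atg7, the activating enzyme of both conjugation systems, had 938 reads (48.6 CPM) in the library labelled KO and 1402 reads (61.9 CPM) in the WT library, a ratio of 0.786 (0.723 to 0.854). Atg3, which transfers LC3 and GABARAP proteins to lipid, had 1322 reads (68.6 CPM) in the library labelled KO and 1887 reads (83.3 CPM) in the WT library, a ratio of 0.823 (0.767 to 0.883). Atg10, which transfers ATG12 to ATG5, had 104 reads in the library labelled KO and 123 in the WT library, too few to place it more closely than a ratio of 0.758 to 1.30.

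ATG12, ATG5 and ATG16L1 form the complex that directs LC3 to the membrane, and their ratios lay on both sides of 1. Atg12 had 38.6 CPM in the library labelled KO and 43.8 CPM in the WT library, a ratio of 0.882 (0.801 to 0.971). Atg5 had 73.5 CPM in the library labelled KO and 65.3 CPM in the WT library, a ratio of 1.13 (1.05 to 1.21). Atg16l1 had 40.0 CPM in the library labelled KO and 36.5 CPM in the WT library, with an interval that included no difference. The ATG4 proteases, which prime LC3 and GABARAP proteins and later release them from membrane, had log2 ratios of 0.04 for Atg4a, -0.08 for Atg4b, 0.11 for Atg4c and 0.19 for Atg4d, at levels between 6.48 and 37.9 CPM in the library labelled KO and between 6.31 and 37.7 CPM in the WT library. Of these only the interval of Atg4d, at 37.9 CPM in the library labelled KO and 33.3 CPM in the WT library, left out no difference, and 23.6% of its exon bases overlap Kri1 on the opposite strand.

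**Figure D4:**
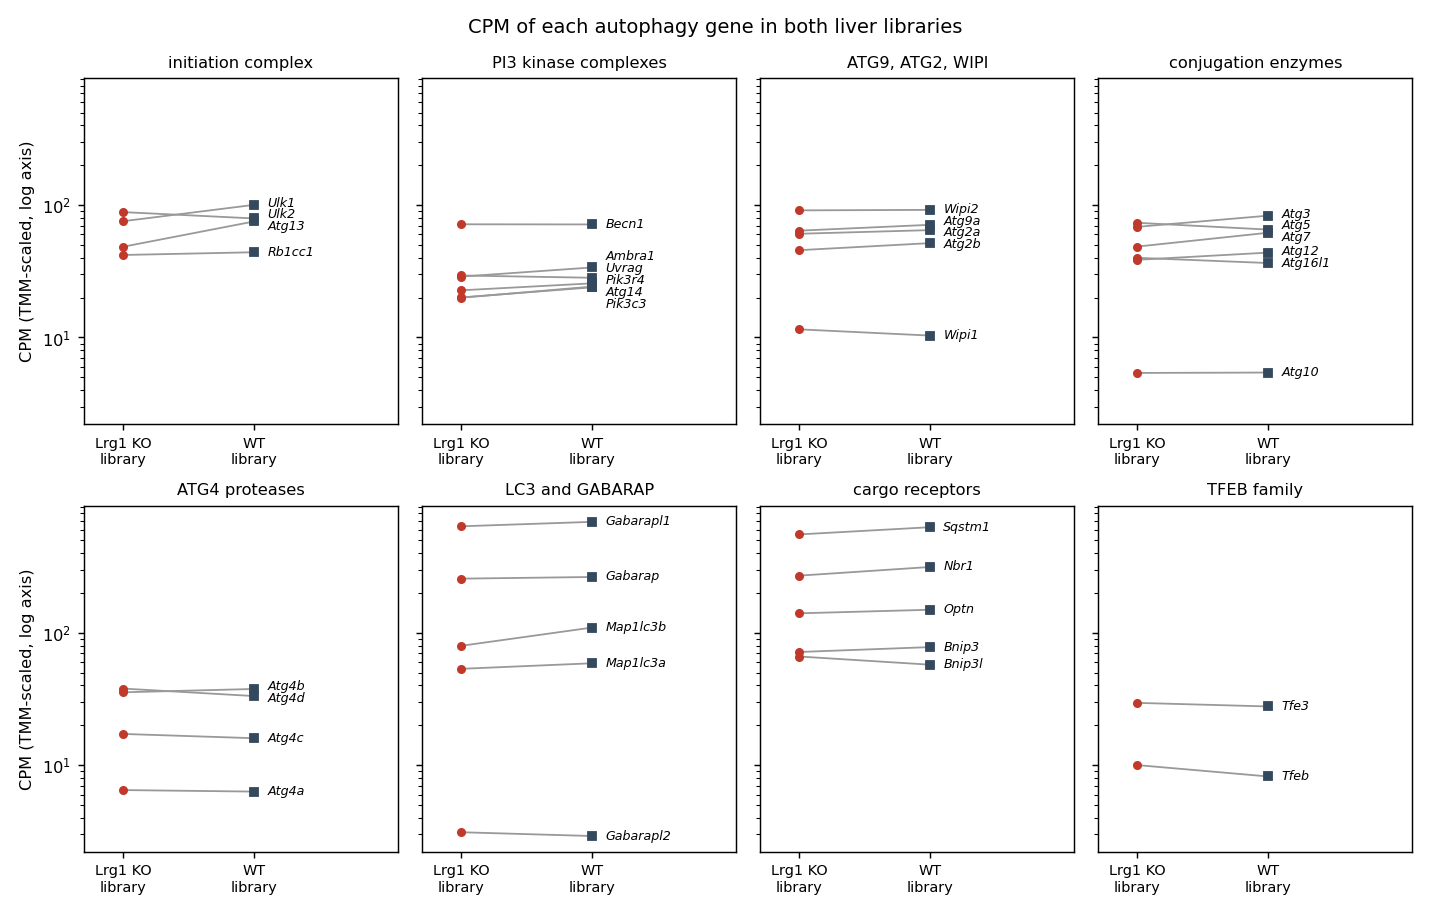
CPM of each autophagy gene on a log axis in the library labelled KO (red circles, left) and the WT library (dark squares, right), 1 panel per step, with a line joining the values of 1 gene. Lines slope visibly for Atg13, Ulk1 and Map1lc3b, and most others are near level.

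The LC3 and GABARAP proteins are the ubiquitin-like proteins that decorate the autophagosome. Gabarapl1 was the most abundant autophagy transcript per length, at 351 RPKM, which is CPM per kilobase of exon, in the library labelled KO and 379 RPKM in the WT library. Sqstm1 followed at 196 and 223 RPKM and Gabarap at 190.0 and 196 RPKM in the same order. Among the LC3 genes Map1lc3a was at 48.1 RPKM in the library labelled KO and 53.0 RPKM in the WT library, and Map1lc3b at 15.4 and 21.2 RPKM. These levels use merged exon lengths from the annotation, so a gene with long annotated exons that liver does not use would be placed too low. Map1lc3b has 5182 merged exon bases but 2633 in its longest coding transcript, whereas Map1lc3a has 1112 in both. The gap in RPKM between these genes therefore depends on the length used, and the length present in liver was not tested.

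Map1lc3b, on chromosome 8, encodes LC3B, the usual marker of autophagosomes, and had the second lowest ratio of the 37 genes. It had 1539 reads, or 79.8 CPM, in the library labelled KO and 2484 reads, or 109.7 CPM, in the WT library. The ratio was 0.728 (0.683 to 0.776), and the log2 ratio of -0.46 became -0.38 with total-count scaling. Map1lc3a was at 53.5 CPM in the library labelled KO and 58.9 CPM in the WT library, a ratio of 0.908 (0.836 to 0.986). Map1lc3b made up 59.9% (58.0% to 61.8%) of the reads of the LC3 pair in the library labelled KO and 65.1% (63.5% to 66.6%) in the WT library, with intervals that were also apart.

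The GABARAP genes were closer to no difference. Gabarapl1 had 12314 reads (639 CPM) in the library labelled KO and 15632 reads (690.1 CPM) in the WT library, a ratio of 0.925 (0.904 to 0.948), with 20.7% of its exon bases under an opposite-strand gene. Gabarap had 257 CPM in the library labelled KO and 264 CPM in the WT library, a ratio of 0.971 (0.935 to 1.01). Gabarapl1 made up 61.9% of all reads of the 5 genes in the library labelled KO and 61.3% in the WT library. Map1lc3b made up 7.74% (7.37% to 8.12%) in the library labelled KO and 9.74% (9.38% to 10.1%) in the WT library.

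Gabarapl2 had only 60 reads in the library labelled KO and 66 in the WT library, and part of its transcript recurs elsewhere at the read length of 50 bases. Over its longest coding transcript, untranslated parts included, 277 of 1628 stretches of 50 bases, or 17.0%, recur letter for letter in transcripts of genes elsewhere, the most in the processed pseudogene Gm3724. All of these lie in its coding sequence, where they make up 91.7% of 302 stretches. The share of the whole transcript was 63.6% for Atg4a, 48.9% for Bnip3 and 23.4% for Bnip3l, and that of the coding sequence alone was 72.1% for Atg4a, 72.5% for Bnip3 and 70.7% for Bnip3l. The gene sharing most is Atg4a-ps for Atg4a and Bnip3l-ps for Bnip3l. Alignments to more than 1 place were counted to no gene, so the counts of these 4 genes lean on the unshared part of each transcript. A coding stretch of each, in the sense of the GENCODE M21 transcript on GRCm38, shows what such sharing looks like, with up to 90 bases covered by shared stretches in capitals and flanking coding bases in lower case.
Gabarapl2, chromosome 8: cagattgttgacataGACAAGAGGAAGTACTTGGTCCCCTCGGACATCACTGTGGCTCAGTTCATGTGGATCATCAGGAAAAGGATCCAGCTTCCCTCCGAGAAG
Atg4a, chromosome X: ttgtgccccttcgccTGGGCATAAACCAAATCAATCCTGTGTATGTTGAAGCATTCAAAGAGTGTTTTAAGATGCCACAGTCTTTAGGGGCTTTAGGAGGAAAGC
Bnip3, chromosome 7: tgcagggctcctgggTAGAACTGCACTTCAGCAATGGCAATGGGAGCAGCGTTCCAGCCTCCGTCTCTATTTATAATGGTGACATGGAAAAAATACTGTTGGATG
Bnip3l, chromosome 14: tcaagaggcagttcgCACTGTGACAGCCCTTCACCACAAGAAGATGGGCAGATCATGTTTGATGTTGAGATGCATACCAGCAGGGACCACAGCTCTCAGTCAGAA

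Cargo receptors bind both ubiquitinated or organellar cargo and LC3 and GABARAP proteins. Sqstm1, on chromosome 11, encodes the ubiquitin-binding receptor p62, whose gene is also a target of the oxidative stress factor NRF2. It had 10694 reads (555 CPM) in the library labelled KO and 14244 reads (629 CPM) in the WT library, a ratio of 0.882 (0.860 to 0.904). Nbr1, a related receptor, had 5219 reads (271 CPM) in the library labelled KO and 7129 reads (315 CPM) in the WT library, a ratio of 0.860 (0.830 to 0.891). These receptors kept nearly the same balance, with Sqstm1 at 67.2% (66.5% to 67.9%) of the reads of the pair in the library labelled KO and 66.6% (66.0% to 67.3%) in the WT library. Optn, a receptor for mitochondria and bacteria, was at 140.5 CPM in the library labelled KO and 149 CPM in the WT library. Of the Sqstm1 exon bases, 20.5% overlap Mrnip on the opposite strand.

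The mitophagy receptors Bnip3 and Bnip3l sit in the outer mitochondrial membrane and differed from each other. Bnip3 had 1382 reads (71.7 CPM) in the library labelled KO and 1768 reads (78.0 CPM) in the WT library, a ratio of 0.918 (0.855 to 0.986). Bnip3l had 1277 reads (66.2 CPM) in the library labelled KO and 1301 reads (57.4 CPM) in the WT library, a ratio of 1.15 (1.07 to 1.25). Bnip3 made up 52.0% (50.1% to 53.9%) of the reads of the pair in the library labelled KO and 57.6% (55.8% to 59.4%) in the WT library. The shared coding stretches printed above limit both values, and 27.2% of the Bnip3 exon bases overlap a gene on the opposite strand.

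The transcription factors Tfeb and Tfe3, which induce lysosome and autophagy genes when they enter the nucleus, had ratios above 1. Tfeb had 193 reads (10.01 CPM) in the library labelled KO and 186 reads (8.21 CPM) in the WT library, a ratio of 1.22 (0.991 to 1.499). Tfe3 had 570 reads (29.6 CPM) in the library labelled KO and 629 reads (27.8 CPM) in the WT library, a ratio of 1.06 (0.949 to 1.19). Both intervals included no difference, and the activity of these factors, which is set by their phosphorylation, was not measured.

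TFEB and TFE3, like the clock factors of the same protein class, bind the E-box CACGTG, which in many TFEB targets is part of a longer palindrome called the CLEAR element. RefSeq promoter windows (GRCm38.p6, 250 bases before to 50 after the gene start) were at hand for 30 of the 37 genes. The E-box was present in 5 of them, or 16.7%, against 8.09% of 27025 genes, and the CLEAR element in 0 of 30 against 0.370%. These 27025 are all genes with a window, whether or not measured in liver, while all 30 passed the read minimum. The shares are therefore of unlike sets. Both motifs read the same on either strand. The E-boxes, in capitals with up to 20 bases on each side, are shown to set their letters beside the ratios of their genes.
Atg14, chr14:47568410-47568455, minus strand: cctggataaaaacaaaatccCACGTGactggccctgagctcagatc
Atg3, chr16:45158715-45158760, plus strand: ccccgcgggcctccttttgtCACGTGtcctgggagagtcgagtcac
Atg3, chr16:45158738-45158783, plus strand: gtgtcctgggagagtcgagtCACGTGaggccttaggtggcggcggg
Atg5, chr10:44268305-44268350, plus strand: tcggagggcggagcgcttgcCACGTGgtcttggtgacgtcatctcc
Atg7, chr6:114670944-114670989, plus strand: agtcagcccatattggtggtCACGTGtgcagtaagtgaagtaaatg
Bnip3, chr7:138909589-138909634, minus strand: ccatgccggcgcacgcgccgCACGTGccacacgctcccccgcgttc

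The Atg3 windows match the CLEAR element in 9 of 10 letters, those of Atg14 and Atg7 in 8 and those of Atg5 and Bnip3 in 7. Only stretches around an E-box were scored, so the letters of the E-box itself match in every case. The scores were not set against those of other genes. Genes with an E-box were lower in the library labelled KO except for Atg5: the log2 ratio was -0.35 for Atg7, -0.28 for Atg3, -0.28 for Atg14, -0.12 for Bnip3 and 0.17 for Atg5. Whether the E-box bears on these ratios was not tested. Atg13, Map1lc3b and Ulk1, which had the lowest ratios, have no E-box in their windows. Searched on both strands, the PAR bZIP site TTATGTAA and the FOXO site GTAAACA were in the windows of 0 of 30 genes. Over all genes with a window they were in 1.11% and 4.05%. At shares this low, 30 genes are too few for a count of 0 to show an absence, the CLEAR element included. Also searched were TGACGTCA, in 1 of 30 genes (Atg5) against 2.03%, and CCAAT, in 10 of 30 against 41.1%. A match in letters is a description and not a binding site.

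Around these genes, all 6 related lists had medians below 0. Genes past 1.5-fold were spread unevenly over the lists. They were 0 of 20 in other machinery, but 1 higher and 2 lower of 16 transcription factors. Of 118 measured genes in 6 related lists, 9 were past 1.5-fold, 1 of them above and 8 below the level in the WT library. Over all measured genes 12.8% were past 1.5-fold, 5.89% higher and 6.91% lower. On the lower side the related lists together were thus near the share over all measured genes. In the related lists 0 genes were 2-fold apart, against 4.2% of all measured genes. Their interquartile range together was 0.28, near the 0.27 of the autophagy genes and below the 0.41 of all measured genes. By list it ran between 0.20 for lysosome genes and 0.46 for transcription factors. The median over the related lists, -0.09, became -0.0096 with total-count scaling. The medians of the lists of other machinery (0.05) and of mTORC1 and AMPK control (0.04) were then above 0.

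**Figure D5:**
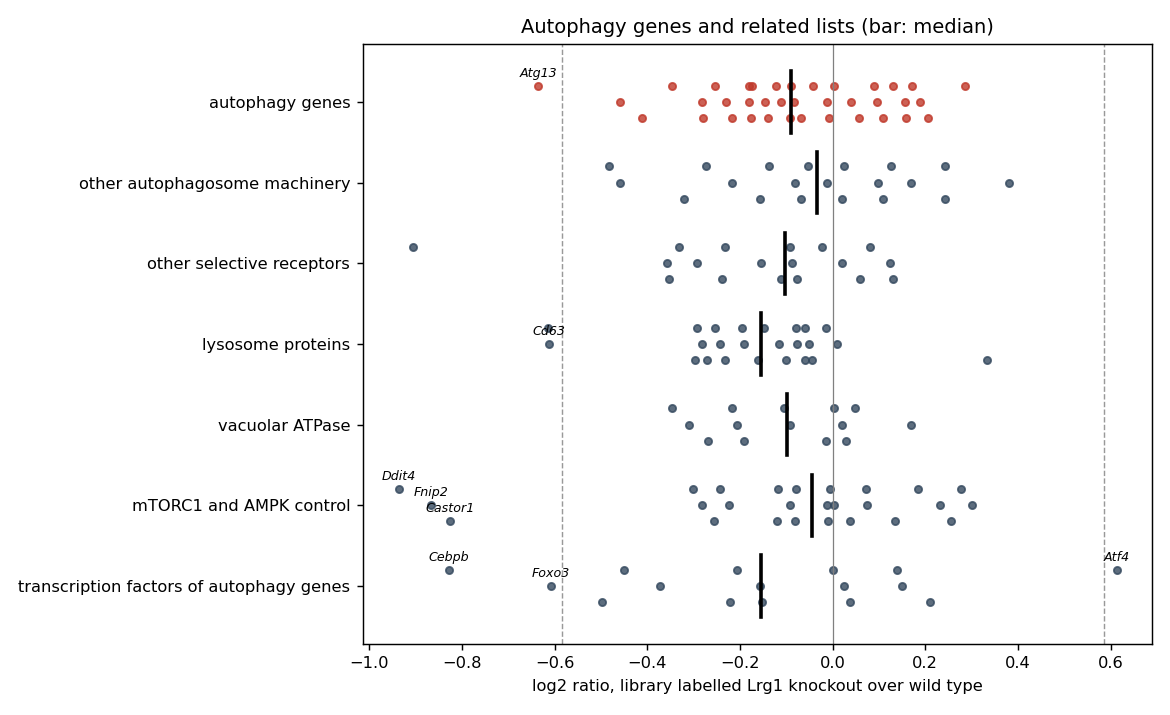
Log2 ratio of the library labelled KO to WT (x axis) for the 37 autophagy genes (red) and the measured genes of 6 related lists (dark), 1 row per list with a bar at the median and dashed lines at 1.5-fold. Genes past 1.5-fold that the text describes are named, with Ddit4 (-0.94) lowest and Atf4 (0.61) highest.

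Control genes of mTORC1 and AMPK, the kinases that restrain and promote autophagy, were near 0 in median (-0.04) with 3 of 26 past 1.5-fold, all lower in the library labelled KO. Among all measured genes, 5.89% were past 1.5-fold on the higher side and 6.91% on the lower side. Ddit4, a stress-induced mTORC1 inhibitor, had 70 reads in the library labelled KO and 158 in the WT library (log2 ratio -0.94). Fnip2, a partner of the folliculin complex that controls TFE3 and TFEB, had 497 and 1065 reads in the same order (-0.87). Castor1, an arginine sensor of mTORC1, had 30 reads in the library labelled KO and 63 in the WT library (-0.83).

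Of 16 transcription factors known to act on autophagy genes, 1 was at least 1.5-fold higher and 2 were lower, against 5.89% and 6.91% of all measured genes. Cebpb, described in mouse liver as a driver of daily rhythms in autophagy transcripts, had 859 reads (44.5 CPM) in the library labelled KO and 1793 reads (79.2 CPM) in the WT library, a ratio of 0.563 (0.518 to 0.611). Foxo3, a factor that induces autophagy genes under low insulin, had 226 reads in the library labelled KO and 405 in the WT library, a ratio of 0.656 (0.555 to 0.773), and its log2 ratio of -0.61 became -0.53, short of 1.5-fold, with total-count scaling. Atf4, the effector of the integrated stress response, had 135 CPM in the library labelled KO and 88.3 CPM in the WT library, a ratio of 1.53 (1.44 to 1.62). The clock output gene Dbp had 193 reads in the library labelled KO and 2249 in the WT library, and Nr1d1 had 1058 and 3444 reads in the same order, both named after their values were seen. The part of clock phase in the ratios of autophagy genes was not tested.

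Lysosome genes were mostly slightly lower, with 22 of 24 below 0 and a median of -0.16, against 51.6% and -0.01 over all measured genes. With total-count scaling 15 of 24 were below 0 and the median was -0.07. Over all measured genes, 4592 of 11411 were then below 0 and the median was 0.071. Cd63, a late endosome tetraspanin, had 46 reads in the library labelled KO and 83 in the WT library (-0.61), and with total-count scaling it stood at -0.53, short of 1.5-fold. Lipa, the acid lipase that breaks down lipid droplets delivered by autophagy, was higher, with 6459 reads (335 CPM) in the library labelled KO and 6026 reads (266 CPM) in the WT library, a ratio of 1.26 (1.22 to 1.30). Proton pump genes of the vacuolar ATPase had a median of -0.10 with 0 of 14 measured genes past 1.5-fold, against 12.8% of all measured genes. The lowest were Atp6v0a1 (-0.35), Atp6v1f (-0.31) and Atp6v1d (-0.27).

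Other autophagosome machinery had a median of -0.03 and 0 of 20 genes past 1.5-fold, against 12.8% of all measured genes. Its farthest members were Tmem41b, a lipid scramblase of the endoplasmic reticulum (-0.48), Zfyve1, a PI3P-binding protein (-0.46), and Atg101, the fourth part of the initiation complex. Atg101 had 750 reads in the library labelled KO and 677 in the WT library (0.38), opposite in direction to its partner Atg13. The 18 other selective receptors had a median of -0.10. The ferritin receptor Ncoa4 was at -0.36 and the endoplasmic reticulum receptor Retreg1 at -0.35.

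Markers of some other liver cells also differed between the libraries. Sinusoidal endothelial markers summed to 256 CPM in the library labelled KO and 166 CPM in the WT library, with 5 of 6 higher. Kupffer cell markers summed to 304 CPM in the library labelled KO and 372 CPM in the WT library, with 5 of 6 lower. Stellate cell markers summed to 387 and 352 CPM in the same order, with 6 of 6 higher, but 3 of the 6 intervals included no difference. Among these 3 was Dcn, with 4238 of 7459 stellate marker reads in the library labelled KO and 4894 of 7968 in the WT library. Cholangiocyte markers summed to 41.2 and 42.8 CPM in the same order. Only 2 of 6 cholangiocyte markers passed the read minimum, and the intervals of both included no difference. Spp1 gave 629 of their 795 reads in the library labelled KO and 768 of 969 in the WT library. Lymphocyte markers summed to 3.42 CPM (66 reads) in the library labelled KO and 1.68 CPM (38 reads) in the WT library, with 0 of 6 past the read minimum. Pancreas markers had 4 reads in the library labelled KO and 0 in the WT library, where a limit of 3 counts for a count of 0 is 0.132 CPM. Prss1, Ctrb1 and Pnlip were at 0 in both. Skeletal muscle markers had 29 reads in the library labelled KO and 28 in the WT library. The part of cell makeup in the ratios of autophagy genes was not tested.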

How the data were processed

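Raw counts of reads per gene symbol were deposited by the authors as 1 file per library. Per the submitters' processing notes, reads went through bcl2fastq, TopHat2 and HTSeq against build mm9. No source used here gives versions, annotation or strand setting. Per the labels, libraries used about 500 ng of total RNA, poly(A) selection, a stranded kit and single-end reads of 50 bases. Lines naming no gene were left out: reads outside genes were 14.4% (KO label) and 14.0% (WT) of unique reads.

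Counts were scaled by TMM in edgeR 4.0.16 under R 4.3.3 (factors 1.03 for the library labelled Lrg1 knockout and 0.972 for wild type). Log2 ratios used a prior count of 0.5, ratios an exact Clopper-Pearson interval given both counts. The labels describe no molecular identifiers, so reads are not independent molecules and intervals cover counting error only. Called means past 1.5-fold or 2-fold. The 37 genes and the lists were chosen with earlier results of these data known. Every one of the 37 is reported, and of each related list the 3 measured genes farthest from 0, except that some are not reported here. Older symbols were matched through RefSeq synonyms. Exon lengths, overlaps and shared 50-base stretches came from GENCODE M21 (GRCm38), with exact matches to annotated transcripts only. Alternatives were other scalings (DESeq2 1.42.0 among them), thinning, a prior count of 2 and read minimums of 1, 10 and 200. The steps were tested on simulated counts. Scripts ran in Python 3.11.15 with scipy 1.17.1 (intervals), numpy 2.4.6, matplotlib 3.10.9 (plots) and pandas 2.3.3.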

Additional observations from a re-analysis of the deposited data

Results flagged for a closer look

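Alignments to more than 1 place are tallied apart from the genes. They were 58.0% of the lines tallied for the library labelled KO, against 50.3% for the WT library, a share above the WT level in a tally that no comparison above uses. Which genes these alignments came from was not tested.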

How the results depend on the processing

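Past 1.5-fold on the lower side there was 1 autophagy gene, Atg13, and there were 0 with total-count scaling (log2 ratio -0.55) and with total count without the 20 most abundant genes (-0.58). The median log2 ratio of the 37 genes was -0.09 and became -0.0067 and -0.030 under these scalings, which move every gene by the same amount. The counts at 2-fold and of genes 1.5-fold higher were 0 under every alternative run: 3 scalings, thinning, a prior count of 2, read minimums of 1, 10, 200 and 1000, of which the last was added after seeing the data. Rb1cc1, Wipi2, Atg10 and Gabarap, all within 0.07 of 0, changed sign under at least 1 alternative. No paired analysis was possible because each group has 1 library, and no library could be left out. Depth limits Gabarapl2, Atg10 and Atg4a, which had fewer than 300 reads summed over both libraries.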
